A study of Mus musculus with 8 samples.

Results

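The 43 genes described here encode the pore-forming subunits of voltage-gated potassium channels (34 genes) and of voltage-gated calcium channels (9 genes). They were chosen by name, from a list of autosomal pore genes of both classes without Kcnq1, and not by a measured value. Earlier results of these data were known when they were chosen. All 43 were found among the 21352 genes of the files, 20368 of which lie on chromosomes 1 to 19. The data are a low-input CUT&RUN experiment on primordial germ cells (PGCs), which later form the gametes, sorted from pools of mouse embryos of 1 sex. In CUT&RUN an antibody tethers a nuclease to its target in the nucleus, and the DNA that is cut free is sequenced.

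The antibody was against H3K27me3, a trimethylated lysine of histone H3, in 2 libraries, both from female embryos, of stages E11.5 and E12.5. The 3 control libraries used IgG, which recovers untargeted cleavage, and came from males at E11.5, from females at E12.5 and from females at E13.5. All animals were B6 x Cast hybrids with an Oct4-eGFP+/- reporter. Every group also carried an Xist knockout allele, written Xist KO/+ in females and Xist KO/Y in males, so neither IgG nor H3K27me3 was measured without it. The E11.5 control therefore differs from the E11.5 H3K27me3 library in sex as well as in antibody, and the E13.5 control has no H3K27me3 library of its stage. Each of the 5 groups had 1 library with gene counts. No spread between replicates could be measured, and no test between conditions is given. The labels list 3 further H3K27me3 samples, named as 2 parts of a second E11.5 replicate and as a second E12.5 replicate. No gene counts were at hand for them, so they were not analysed here.

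Voltage-gated potassium channels open when the membrane is depolarised and bring it back to rest, while voltage-gated calcium channels turn a depolarisation into an inflow of calcium. Both are known from neurons, heart and muscle. H3K27me3 is placed by Polycomb repressive complex 2 on genes that are kept silent, typically genes of other lineages, and it often covers broad domains. PGCs at these stages carry such domains at developmental genes while they erase most of their DNA methylation.

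The files hold, for each gene, the reads that could be assigned to 1 of 2 parental alleles, counted over the gene. A level here is the sum of both alleles per 1000000 such reads on chromosomes 1 to 19, written RPM. Only reads that cover a strain variant can be assigned, so a level depends on how many variants a gene has. The variants of a gene are the same in every library. They cancel within a gene only where the reads of the compared libraries lie along it in the same way. Counts over whole genes cannot show whether they do. Levels of different genes are compared only per kilobase of gene length, and then still depend on variant density. A signal in all cells and a stronger signal in a fraction of the cells cannot be told apart in such pooled material.

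The libraries held between 1357583 (IgG E11.5) and 5705401 (IgG E13.5) reads on chromosomes 1 to 19, with 2356356 and 5020062 in H3K27me3 at E11.5 and E12.5. The channel genes were more deeply covered than most, with a median of 400 and 578 reads per gene in the H3K27me3 libraries and of 84, 111 and 337 in IgG, against 32 and 67 and 23, 28 and 91 over all autosomal genes. Marker genes gave the range of the assay. Of 28 developmental regulators, 26 stood at 2-fold or more above IgG at E12.5, with a median log2 ratio of 2.30, and none of 19 testable housekeeping genes did (median -1.13). Among markers of germ cells 0 of 11 were 2-fold higher (median -0.99), of gonadal somatic cells 7 of 7 (2.03), of blood and endothelium 2 of 8 (0.80) and of neurons 1 of 6 (0.59). Over all autosomal genes 15.2% were 2-fold higher, with a median of -0.54. Antibody and IgG reads do not measure RNA, so these lists do not test which cells were sorted.

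More of the channel genes stood above IgG than genes in general did. Both H3K27me3 levels lay above all 3 IgG levels in 26 of the 42 channel genes with at least 20 reads over the 5 libraries, while 23.9% of all autosomal genes were arranged that way. The reverse order, with both H3K27me3 levels below all 3 IgG levels, was found in 8 channel genes and in 49.7% of autosomal genes. In the other 8 the libraries overlapped. All 8 Kcna genes, Cacna1g, Cacna1h and Cacna1i were among the 26, and Kcng3, Kcnh1 and Cacna1d among the 8 below. Under library factors that assume most genes unchanged (TMM, an edgeR method), 31 channel genes were above, against 34.4% of autosomal genes, and 2, Kcng3 and Kcnh1, below, against 35.1%. The remaining gene, Kcnf1, had 0 and 1 reads in H3K27me3 and 0, 1 and 3 in IgG, which is at or below the floor of 3 reads, and could not be compared.

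At E12.5, 12 of 41 channel genes were 2-fold or more above the IgG library of that stage, which was the case for 15.2% of all autosomal genes tested, and 2 were 2-fold or more below, against 29.5%. The median log2 ratio (RPM plus 1) was 0.59 for the channel genes and -0.54 for autosomal genes, a difference of 1.133, and 33 of the 41 lay above the autosomal median. At E11.5, over the male IgG library, 17 of 41 were 2-fold higher (17.2% of autosomal genes) and none was 2-fold lower (29.7%). The median there was 0.88 against -0.49, and 34 of 41 lay above the autosomal median. With IgG E13.5 as control, 18 of 42 were higher at E12.5 (15.9% of autosomal genes) and 1 lower (24.2%), and 19 of 41 were higher at E11.5 (16.8%) and 0 lower (27.2%). Of the 41 tested at both stages, 17 were 2-fold above IgG E13.5 at both, against 14.5% of autosomal genes.

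These counts depend on how the libraries are scaled to each other. With TMM factors the autosomal median moved from -0.54 to -0.04 at E12.5 and from -0.49 to -0.06 at E11.5. The split of 12 higher and 2 lower then became 26 and 0 at E12.5, against 24.9% of autosomal genes higher, and the split of 17 and 0 became 24 and 0 at E11.5, against 23.8%. Median-of-ratios factors gave 26 at E12.5, against 24.8%, and 25 at E11.5. The difference between the medians of the channel genes and of all autosomal genes changed little, to 1.16 and 1.39. Ratios are therefore best read against the autosomal medians of -0.54 and -0.49.

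A set of 9 genes was 2-fold or more above the stage-matched control at both stages, namely Kcna1, Kcna2, Kcna5, Kcna6, Kcng2, Kcng4, Kcnh3, Kcns1 and Cacna1g, which is 9 of 41 against 11.9% of autosomal genes. All of them except Kcna2 were also 2-fold above IgG E13.5 at both stages, which leaves 8 genes called in all 4 comparisons, against 11.1% of autosomal genes. These comparisons share libraries and are not independent of each other.

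**Figure D1:**
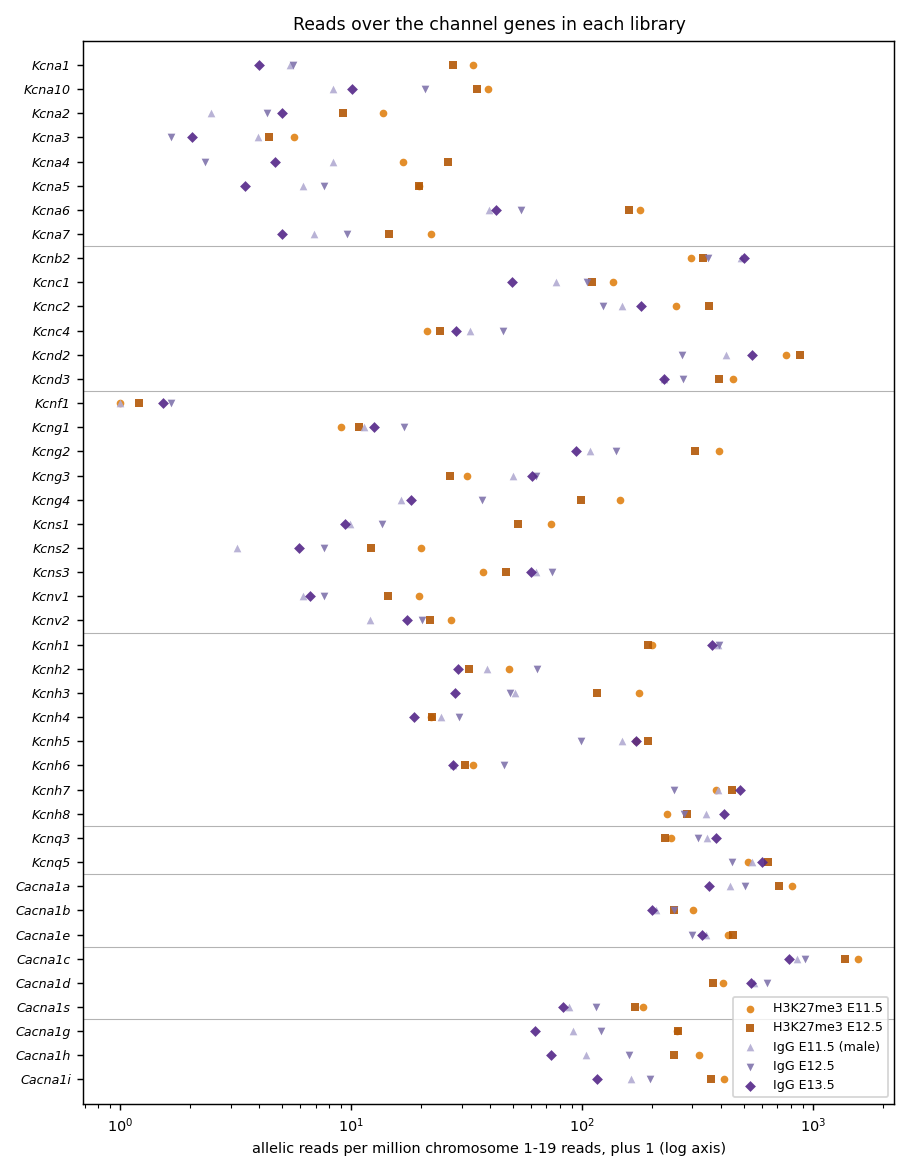
Allelic reads per 1000000 reads of chromosomes 1 to 19 (RPM), plus 1 (log axis), for each of the 43 channel genes in the 2 H3K27me3 and 3 IgG libraries, with lines between the subfamilies. Each point is 1 library. The orange H3K27me3 points lie to the right of all IgG points in all 8 Kcna genes, and to the left of them in 8 genes that include Kcng3, Kcnh1 and Cacna1d; under TMM factors this holds for only Kcng3 and Kcnh1.

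Polycomb domains of vertebrates are often centred on promoters rich in CG dinucleotides, so the start sites of the channel genes were examined for CG content. The promoter table of RefSeq (GRCm38.p6, from 250 bases before to 50 after the start) held 31 of the 43 genes. Each gene was given 1 window, so any other start site of a gene was not examined. The Kcna2 window, for example, starts at position 107101317, inside the RefSeq gene, which starts at 107090883. The deposited counts cover whole genes, so no count belongs to these windows. The windows below were picked, after the values had been seen, to show 2 genes with H3K27me3 above IgG and 2 with H3K27me3 below it, 1 of each pair rich and 1 poor in CG. Capitals mark each CG, the motif searched, which reads the same on both strands. All 4 genes lie on the minus strand, and the windows are chr2:164171064-164171363 (Kcns1, 22 CG, above IgG), chr6:126740625-126740924 (Kcna6, 8 CG, above IgG), chr17:83631846-83632145 (Kcng3, 49 CG, below IgG) and chr14:30491107-30491406 (Cacna1d, 4 CG, below IgG).
Kcns1: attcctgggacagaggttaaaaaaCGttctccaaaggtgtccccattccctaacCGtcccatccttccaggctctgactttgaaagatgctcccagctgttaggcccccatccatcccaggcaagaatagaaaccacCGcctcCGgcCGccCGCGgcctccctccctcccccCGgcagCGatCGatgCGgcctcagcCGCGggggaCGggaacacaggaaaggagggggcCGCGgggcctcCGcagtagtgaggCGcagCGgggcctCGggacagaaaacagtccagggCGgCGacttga
Kcna6: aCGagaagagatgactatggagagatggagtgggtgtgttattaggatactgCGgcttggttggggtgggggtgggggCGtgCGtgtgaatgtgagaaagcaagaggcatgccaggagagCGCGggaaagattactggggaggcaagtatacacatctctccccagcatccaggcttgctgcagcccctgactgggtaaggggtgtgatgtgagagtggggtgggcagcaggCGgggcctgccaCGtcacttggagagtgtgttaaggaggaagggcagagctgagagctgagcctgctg
Kcng3: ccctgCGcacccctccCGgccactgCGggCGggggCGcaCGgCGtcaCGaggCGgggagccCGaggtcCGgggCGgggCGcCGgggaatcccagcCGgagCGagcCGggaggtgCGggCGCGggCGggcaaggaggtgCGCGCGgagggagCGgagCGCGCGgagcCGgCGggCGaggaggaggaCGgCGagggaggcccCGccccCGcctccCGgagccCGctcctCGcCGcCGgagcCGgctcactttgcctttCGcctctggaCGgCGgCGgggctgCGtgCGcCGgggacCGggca
Cacna1d: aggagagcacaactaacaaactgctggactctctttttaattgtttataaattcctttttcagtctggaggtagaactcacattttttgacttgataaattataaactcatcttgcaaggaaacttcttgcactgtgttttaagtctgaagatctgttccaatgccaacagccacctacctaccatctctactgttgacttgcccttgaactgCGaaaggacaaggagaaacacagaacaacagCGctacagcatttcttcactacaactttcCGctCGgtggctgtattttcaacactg

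Kcng3, whose window is the densest of the channel genes in CG, had the lowest ratio over IgG at E12.5 (-1.24). Cacna1d with 4 CG was at -0.78, beside an autosomal median of -0.54. At E11.5 Cacna1d was at -0.44, above the autosomal median of -0.49. Kcna6 with 8 CG (1.54) and Kcns1 with 22 (1.96) were both high. The 31 windows held from 0 (Kcna10) to 49 CG with a median of 19, against a median of 15 over 15633 autosomal genes. At least 1 CG was present in 30 of 31 windows, or 96.8%, and in 95.4% of all windows. With CpG-rich defined as at least 50% G and C and an observed to expected CG ratio of at least 0.6, 14 of 31 were CpG-rich, or 45.2%, against 48.9% of all.

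The CpG-rich channel genes had 3 of 13 members 2-fold above IgG at E12.5, with a median log2 ratio of 0.07, and the others 5 of 16, with a median of 0.60. Over all autosomal genes the same order was seen, with 7.98% of CpG-rich genes higher (median -0.92) and 21.2% of the others (median 0.07). Across 29 channel genes the rank correlation of CG count with the ratio was -0.26 at E12.5 and -0.21 at E11.5, given as a description over genes of the same libraries. In each class the median of the channel genes lay above that of all autosomal genes.

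**Figure D2:**
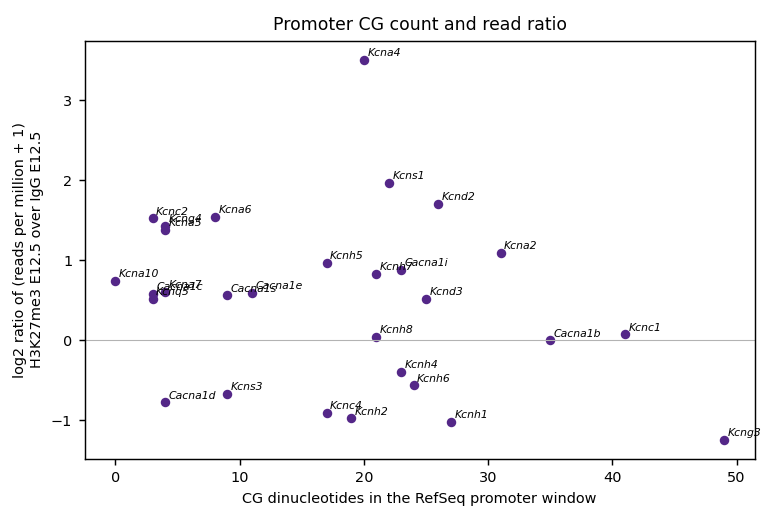
CG dinucleotides in the RefSeq promoter window (x axis, count per 300 bases) and log2 ratio of H3K27me3 E12.5 over IgG E12.5 (y axis, RPM plus 1), 1 point for each of the 29 channel genes with a window and a ratio. Genes with ratios above 1 run from 3 to 31 CG, and Kcng3 with 49 CG is the lowest point.

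The Shaker-type Kcna genes encode the classical delayed rectifier and A-type channels of axons and muscle, and as a subfamily they had the highest median. At E12.5 their median log2 ratio over IgG was 1.38 and 5 of 7 tested were 2-fold higher (15.2% of autosomal genes). At E11.5 the median was 2.18 with 6 of 7 (17.2%). Kcna4, which encodes a rapidly inactivating A-type channel, was measured at 15.7 and 25.3 RPM in the H3K27me3 libraries of E11.5 and E12.5, and 7.37, 1.32 and 3.68 in the IgG libraries of E11.5, E12.5 and E13.5. Its E12.5 level was thus the highest of the 5 and IgG E12.5 the lowest, with 127 reads against 2. Folds are ratios of RPM without the added 1, each with its exact 95% counting interval in parentheses. The fold of 19.2 (5.20 to 160.0) was the highest of all channel genes at E12.5 but rests on those 2 reads. At E11.5 it was 2.13 (1.04 to 4.81), and over IgG E13.5 the E12.5 fold was 6.87 (4.31 to 11.49).

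Kcna1, whose product sets the threshold of axonal firing, had 32.7 and 26.7 RPM in H3K27me3, against 4.42, 4.62 and 2.98 in IgG. Both H3K27me3 libraries lay well above all 3 controls, which held between 6 and 17 reads. Its fold was 5.78 (2.73 to 14.7) at E12.5 and 7.39 (3.25 to 20.8) at E11.5. Kcna6, which is also expressed in axons and is the deepest covered gene of the subfamily, had 177 and 158 RPM in H3K27me3, against 38.3, 53.4 and 41.2 in IgG, and again no control came near the H3K27me3 libraries. The folds of Kcna6 were 2.95 (2.35 to 3.76) at the later stage and 4.62 (3.46 to 6.29) at the earlier. Kcna5, the channel of the ultrarapid current of the atrium, had 18.7 and 18.7 RPM in H3K27me3, against 5.16, 6.60 and 2.45 in IgG, with a fold of 2.84 (1.48 to 6.11) at E12.5.

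Kcna1, Kcna6 and Kcna5 lie beside each other on chromosome 6, with 62.5 kb between Kcna1 and Kcna6 and 101 kb between Kcna1 and Kcna5. All 3 were 2-fold above the control at both stages. A second cluster lies on chromosome 3, where Kcna2 is 52.8 kb from Kcna3 and 68.1 kb from Kcna10. Kcna10, known from hair cells and kidney, had 38.2 and 33.9 RPM in H3K27me3, against 7.37, 19.8 and 9.11 in IgG, which makes it 5.19 (2.69 to 11.2) times IgG at E11.5 and 1.71 (1.16 to 2.61) times at E12.5. Kcna2, an axonal channel, had 12.7 and 8.17 RPM in H3K27me3, against 1.47, 3.30 and 4.03 in IgG, with 2, 5 and 23 reads in the controls. Its fold was 8.64 (2.19 to 74.6) at E11.5 and 2.48 (0.979 to 8.03) at E12.5, so its interval reached below 1 at the later stage. Kcna3, the channel of lymphocytes, had 11 and 17 reads in H3K27me3 and 4, 1 and 6 in IgG, too few for a ratio. In both clusters the H3K27me3 libraries were the highest of the 5 for every gene, Kcna3 included. Genes this close can share a domain, so the 3 genes of a cluster are not separate observations.

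The lowest Kcna gene at E12.5 was Kcna7, a channel of skeletal muscle and heart, with 21.2 and 13.55 RPM in H3K27me3, against 5.89, 8.58 and 4.03 in IgG. It had both H3K27me3 levels above the controls, a fold of 3.60 (1.69 to 8.80) at E11.5 and of 1.58 (0.865 to 3.12) at E12.5. The low counts of this subfamily limit it: Kcna1, Kcna2, Kcna5 and Kcna7 each had fewer than 10 reads in the E11.5 control. With at least 10 IgG reads required, 11 of 35 channel genes (13.3% of autosomal genes) were called higher at E11.5, in place of 17 of 41. The 6 removed were these 4, Kcns2 and Kcnv1. At E12.5 the count became 9 of 38 (11.9%), in place of 12 of 41. Kcna1, Kcna2 and Kcna4 were removed there, with 7, 5 and 2 reads in IgG E12.5.

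The Kcnb, Kcnc and Kcnd genes encode the delayed rectifier, fast-spiking and somatodendritic A-type channels of neurons. Their median ratio was 0.30 at E12.5, with 2 of 6 higher (15.2% of autosomal genes), and 0.80 at E11.5, with 0 of 6 (17.2%). Both calls at E12.5 were of genes of unusual size, Kcnd2 with a deposited length of 514 kb and Kcnc2 with 196 kb. Kcnd2, the main A-type channel of dendrites, had 759.6 and 877 RPM in the H3K27me3 libraries of E11.5 and E12.5, and 418, 269 and 544 in the IgG libraries of E11.5, E12.5 and E13.5. Both H3K27me3 libraries were above all controls, but the controls themselves ranged widely, IgG E12.5 being the lowest. The fold was therefore 3.27 (2.95 to 3.62) over IgG E12.5 and 1.61 (1.54 to 1.69) over IgG E13.5, and 1.82 (1.65 to 1.999) at E11.5.

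Kcnc2, a channel of fast-spiking interneurons, showed the same arrangement, with 255 and 351 RPM in H3K27me3, against 148, 121 and 179 in IgG. Its fold at E12.5 was 2.89 (2.49 to 3.39) over IgG E12.5, 1.97 (1.82 to 2.13) over IgG E13.5, and 1.72 (1.46 to 2.03) at E11.5 over IgG E11.5. Both genes were thus above every control, while the call at 2-fold at E12.5 held over IgG E12.5 and IgG E11.5 but not over IgG E13.5. What the difference between the control libraries contributed was not tested. At the low end, Kcnc4 had 20.4 and 23.1 RPM in H3K27me3, against 31.7, 44.2 and 27.3 in IgG, with all controls above both H3K27me3 libraries. Its fold at E12.5 was 0.523 (0.384 to 0.717), and its log2 ratio of -0.91 also lay below the autosomal median.

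Kcnd3, the A-type channel of heart and brain, had 448 and 391 RPM in H3K27me3, against 225, 273 and 226 in IgG, above the controls in both libraries, with folds of 1.44 and 1.99 at E12.5 and E11.5. Kcnc1 had folds of 1.05 at the later and 1.78 at the earlier stage. Kcnb2 had both H3K27me3 levels below the controls, with folds of 0.607 at the earlier stage and 0.960 at the later, but not under TMM factors.

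The Kcnf, Kcng, Kcns and Kcnv genes encode silent subunits, which form no channel alone and alter Kcnb channels when they assemble with them. This group spanned the widest range: 3 of 9 were 2-fold higher and 1 lower at E12.5 (median 0.68), and 6 of 9 higher at E11.5 (median 1.68). Of autosomal genes, 15.2% were higher and 29.5% lower at E12.5, and 17.2% higher at E11.5. Kcns1 had 72.1 and 51.8 RPM in the H3K27me3 libraries of E11.5 and E12.5, and 8.84, 12.54 and 8.41 in the IgG libraries of E11.5, E12.5 and E13.5. Its H3K27me3 levels were several times those of any control, with folds of 4.13 (2.59 to 6.97) at E12.5 and 8.16 (4.55 to 16.1) at E11.5. Kcng4 had 145 and 97.8 RPM in H3K27me3, against 15.5, 35.6 and 17.2 in IgG, again with no overlap. Its fold was 9.38 (6.04 to 15.4) at E11.5, the highest log2 ratio of the channel genes at that stage (3.15), and 2.75 (2.07 to 3.71) at E12.5. Per kilobase Kcng4 also had the highest H3K27me3 level of the channel genes at E12.5, 8.27 RPM per kb, followed by Kcns1 with 6.91, Kcna5 with 6.54 and Kcnh3 with 6.41.

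Kcng2 was 2-fold above the stage-matched control at both stages, with folds of 3.64 (3.05 to 4.36) at the earlier and 2.21 (1.91 to 2.56) at the later. Kcns2 was 8.64 (2.77 to 43.5) times IgG at E11.5, on 3 control reads, and 1.69 (0.855 to 3.72) times at E12.5. Against the stage-matched controls Kcnv1 and Kcnv2 passed 2-fold at E11.5 only, with folds of 3.62 and 2.34 there, and of 2.02 and 1.09 at E12.5. The calls use RPM plus 1, on which scale the log2 ratio of Kcnv1 at E12.5 was 0.92, and over IgG E13.5 it was 1.12, which is a call. Whether the stages differ in these genes was not tested. In contrast, Kcng3 had 30.6 and 25.7 RPM in H3K27me3, against 49.4, 62.0 and 59.8 in IgG, with every control above both H3K27me3 libraries. Its fold of 0.414 (0.315 to 0.546) at E12.5 was the lowest of the channel genes, and it was 0.619 (0.438 to 0.877) at E11.5.

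Kcns3, a subunit of pulmonary artery muscle and of interneurons, had 36.1 and 45.6 RPM in H3K27me3, against 61.9, 73.2 and 59.1 in IgG, below the controls in both libraries. Its fold was 0.583 (0.426 to 0.798) at E11.5 and 0.623 (0.494 to 0.789) at E12.5, close to the autosomal medians. Kcng1 had 19 and 49 reads in H3K27me3 and intervals that included 1 at both stages. So the silent subunits lay far apart by these ratios, with Kcns1 at the 95.9 percentile of autosomal genes at E12.5 and Kcng3 at the 16.3 percentile.

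The Kcnh genes encode the EAG, ERG and ELK channels, among them Kcnh2, whose product repolarises the heart. Their median ratio was -0.18 at E12.5 and 0.08 at E11.5, which is 0.37 and 0.57 above the autosomal medians, and under TMM factors it was 0.35 and 0.53. Kcnh3, an ELK channel of the forebrain, was the only one of 8 that was 2-fold higher at either stage (15.2% and 17.2% of autosomal genes). It had 175 and 115 RPM in the H3K27me3 libraries of E11.5 and E12.5, and 50.1, 47.5 and 26.99 in the IgG libraries of E11.5, E12.5 and E13.5. The libraries separated fully, with folds of 2.42 (1.89 to 3.14) at E12.5 and 3.499 (2.70 to 4.59) at E11.5.

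Kcnh1, an EAG channel of the brain, stood at the other end with 199 and 191 RPM in H3K27me3, against 387, 388 and 362 in IgG. The 3 controls lay within 362 to 388, and both H3K27me3 libraries lay well below them. The fold was 0.514 (0.453 to 0.583) at E11.5 and 0.493 (0.445 to 0.548) at E12.5, which with 469 and 961 H3K27me3 reads are among the most precise values here. Its log2 ratio of -1.02 was still at the 28.7 percentile of autosomal genes, since the autosomal median was itself below 0. Under TMM factors neither Kcnh1 nor Kcng3 was 2-fold lower.

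Kcnh2 had 47.1 and 31.5 RPM in H3K27me3, against 37.6, 62.7 and 28.0 in IgG, so the 2 H3K27me3 values fell among the controls. Its fold was 1.25 (0.892 to 1.78) at E11.5 and 0.502 (0.387 to 0.655) at E12.5. Kcnh8 had 231 and 283 RPM in H3K27me3, against 343, 274 and 410.3 in IgG, and overlapped the controls as well. So did Kcnh7, with 377 and 443 RPM in H3K27me3, against 386, 248 and 482 in IgG. In Kcnh7 the IgG E12.5 level was the lowest of the 5, and its fold was 1.78 (1.60 to 1.995) over that library but 0.918 (0.868 to 0.971) over IgG E13.5. Kcnh5 was likewise 1.96-fold over IgG E12.5 and 1.129-fold over IgG E13.5. Kcnh4 and Kcnh6 had fewer reads and ratios between -0.56 and 0.29.

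The Kcnq genes, here Kcnq3 and Kcnq5, encode M-current channels that damp repetitive firing. Kcnq5 had 522 and 636 RPM in H3K27me3, against 539.9, 443 and 596 in IgG, overlapping the controls, and Kcnq3 had 242 and 227 RPM in H3K27me3, against 345, 315 and 377 in IgG, below all of them. Their folds at E12.5 were 1.44 (1.32 to 1.56) and 0.720 (0.647 to 0.803), neither past 2-fold.

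Of the 9 calcium channel genes, 1 was 2-fold above IgG at E12.5 (median 0.58) and 4 were at E11.5 (median 0.90), against 11 of 32 (median 0.64) and 13 of 32 (median 0.84) for the potassium channel genes. Medians of the potassium and calcium genes were thus close. The autosomal shares called higher were 15.2% at E12.5 and 17.2% at E11.5. The T-type genes Cacna1g, Cacna1h and Cacna1i, whose channels open at low voltage and pace firing, had the highest ratios. Cacna1g, the one called at both stages, had 256 and 259 RPM in the H3K27me3 libraries of E11.5 and E12.5, and 89.9, 120.1 and 61.3 in the IgG libraries of E11.5, E12.5 and E13.5. Cacna1h had 318 and 249.6 RPM in H3K27me3, against 102, 158 and 72.2 in IgG, and Cacna1i had 409 and 359 RPM in H3K27me3, against 162, 195 and 115 in IgG. In all 3 genes both H3K27me3 libraries lay above all controls, and IgG E12.5 was the highest control.

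The folds of Cacna1g were 2.16 (1.85 to 2.53) at E12.5 and 2.85 (2.34 to 3.49) at E11.5. In the same order of stages, Cacna1h had 1.58 (1.37 to 1.82) and 3.10 (2.59 to 3.75). Cacna1i had 1.84 (1.63 to 2.09) and 2.52 (2.18 to 2.93). With IgG E13.5 as control all 3 passed 2-fold at both stages. The threshold at E12.5 is therefore passed by 1 or by 3 T-type genes, depending on the control library.

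The L-type genes differed among themselves. Cacna1c, the L-type channel of heart and smooth muscle, had 1555 and 1368 RPM in H3K27me3, against 846, 916 and 785 in IgG. Both H3K27me3 values lay above every control, with folds of 1.84 (1.72 to 1.96) at E11.5 and 1.49 (1.41 to 1.58) at E12.5. Cacna1d, the L-type channel of pacemaker and endocrine cells, had 406 and 369 RPM in H3K27me3, against 552, 631 and 534 in IgG, in the reverse order. Its folds were 0.735 (0.668 to 0.810) at the earlier and 0.584 (0.539 to 0.632) at the later stage, so these closely related genes lay on opposite sides of IgG with intervals far from each other. Under TMM factors Cacna1d no longer lay below all controls. At E11.5 all 3 L-type genes were then above IgG, but Cacna1d only barely, at nearly the level of its control. Cacna1s, the channel of skeletal muscle, was 2.09 (1.70 to 2.58) times IgG at E11.5 and 1.48 (1.26 to 1.76) at E12.5.

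The neuronal high-voltage genes Cacna1a (P/Q type), Cacna1b (N type) and Cacna1e (R type), which drive transmitter release, had medians of 0.48 and 0.54 and no 2-fold call at either stage. Cacna1e, the highest at E12.5, had 427 and 447 RPM in H3K27me3, against 341, 296 and 328 in IgG, above all controls. Cacna1b, the lowest, had 302 and 249 RPM in H3K27me3, against 208, 249 and 200.3 in IgG, within the controls at E12.5 and above them at E11.5. Their folds at E12.5 were 1.51 (1.36 to 1.67) and 1.0 (0.891 to 1.12). Cacna1a had folds of 1.40 at the later and 1.86 at the earlier stage, with both H3K27me3 levels above the controls.

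**Figure D3:**
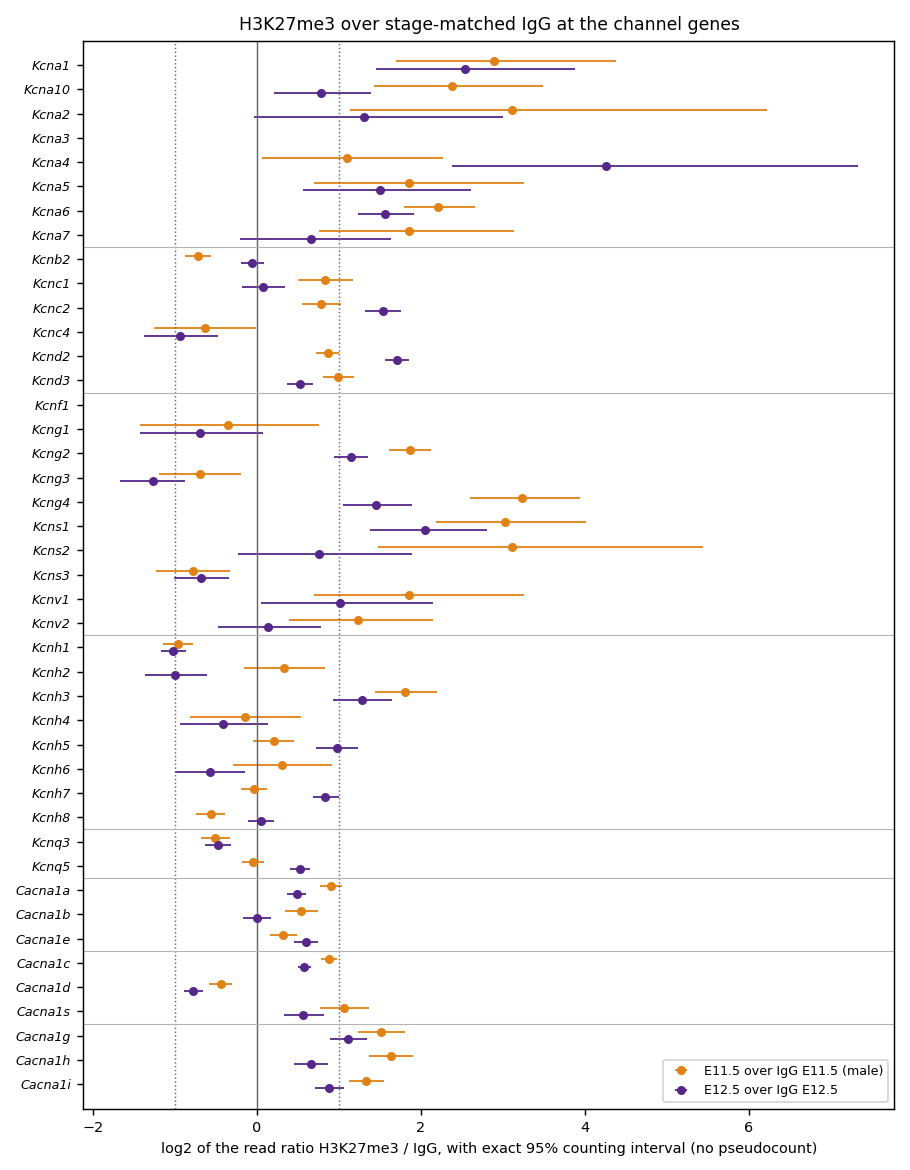
Read ratio of H3K27me3 over the stage-matched IgG library on a log2 scale, without pseudocount, for each channel gene at E11.5 (orange) and E12.5 (purple); bars are exact 95% counting intervals and dotted lines mark 2-fold. Kcna4 at E12.5 has the highest value and a wide bar (5.20 to 160.0-fold), while Kcnh1 lies near the lower dotted line at both stages; under TMM factors neither Kcnh1 nor Kcng3 reaches that line.

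The channel genes are long as a group, and H3K27me3 ratios were highest in genes up to 10 kb in these libraries. Of channel genes up to 10 kb, 4 of 7 were 2-fold above IgG at E12.5, against 28% of all autosomal genes of that length, with medians of 1.38 and 0.10. Between 10 and 100 kb the count was 6 of 18 against 11.6%, with medians of 0.34 and -0.73. Above 100 kb it was 2 of 16 against 7.94%, with medians of 0.52 and -0.47. At E11.5 the counts were 6 of 7 against 38.5%, 10 of 18 against 13.6% and 1 of 16 against 6.29%. In every class and at both stages the median of the channel genes lay above that of all genes of the class.

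The rank correlation of length with ratio was -0.30 over 41 channel genes at E12.5 and -0.60 at E11.5, and -0.16 and -0.31 over all autosomal genes, given as descriptions over genes of the same libraries. The 2 long genes called at E12.5 are Kcnc2 and Kcnd2, which were not called over IgG E13.5; Kcna2, a shorter gene, was not called there either. A count over a gene of this size averages any local signal with the rest of the gene. The deposited length matched the RefSeq gene within 5% for 37 of the 43 genes. The other 6, Kcna1, Kcna2, Kcna4, Kcna7, Kcng3 and Kcnv1, are shorter in the deposited files, as in Kcna4 with 7.86 kb against 36.2 kb, so the counts may cover less than the RefSeq gene.

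**Figure D4:**
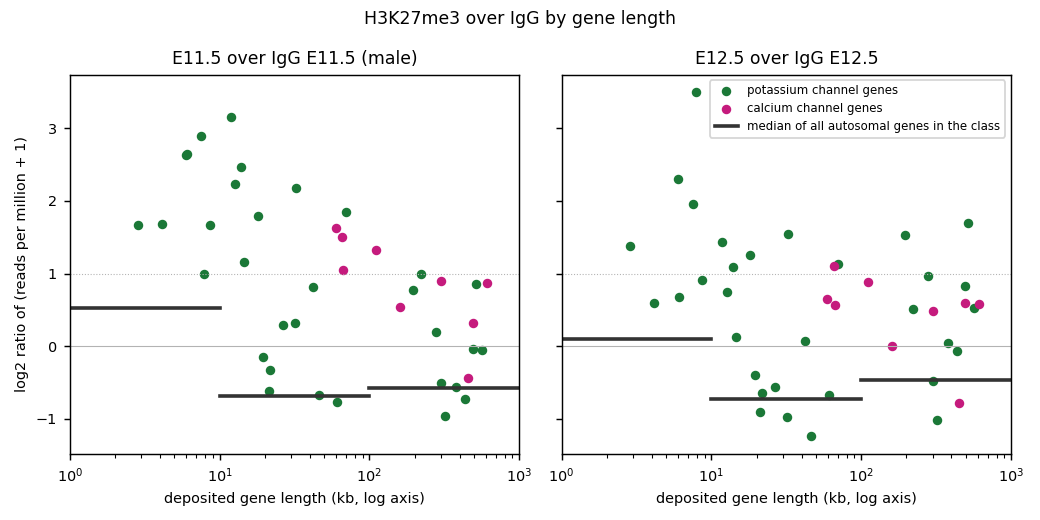
Deposited gene length (x axis, kb, log axis) and log2 ratio of H3K27me3 over stage-matched IgG (y axis, RPM plus 1) at E11.5 and E12.5, 1 point for each channel gene; black lines give the median of all autosomal genes up to 10 kb, from 10 to 100 kb and above 100 kb. Most channel genes lie above the line of their class, including most of those above 100 kb; the dotted line marks 2-fold.

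Between E11.5 and E12.5 no channel gene differed by 2-fold in H3K27me3 level, among 42 tested, while 0.756% of autosomal genes were 2-fold higher and 0.787% 2-fold lower. The median log2 ratio of E12.5 over E11.5 was -0.17 for the channel genes and 0.01 for autosomal genes, and 13 of 42 lay above the autosomal median. The lowest log2 ratio was that of Kcns2, with a fold of 0.584 (0.388 to 0.885), followed by Kcna7, 0.638 (0.437 to 0.939), and Kcnh3, 0.657 (0.578 to 0.747). The highest were those of Kcna4, 1.61 (1.109 to 2.39), and Kcnc2, 1.38 (1.26 to 1.52). Kcng4, the gene with the highest ratio at E11.5, had a stage fold of 0.674 (0.586 to 0.776).

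By length, the median stage ratio was -0.41 for channel genes up to 10 kb, -0.21 from 10 to 100 kb and 0.01 above 100 kb, against -0.07, 0.00469 and 0.08 over all genes of these classes. In the IgG libraries the channel genes had a median ratio of E12.5 over E11.5 of 0.26 over 35 genes, against 0.07 over autosomal genes. By length it was 0.47 from 10 to 100 kb and -0.17 above 100 kb, the reverse of the order in the mark. High IgG ratios were also rarer among long genes in general. The ratio of Kcnd3, 0.27, was at the 67.9 percentile of all autosomal genes but the 87.7 percentile of those above 100 kb. Of 35 channel genes, 2 were 2-fold higher in IgG E12.5 than in IgG E11.5, against 2.42% of autosomal genes, and 0 were lower, against 1.43%. These 2 were Kcna10, with a log2 ratio of 1.31, and Kcng4, with 1.15. From IgG E12.5 to IgG E13.5, 2 of 41 were higher (3.72%) and 6 lower (5.62%). Each stage is 1 library, and stage cannot be told apart from library here.

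The allele-resolved counts ask whether H3K27me3 lay on both parental copies. The second-allele share is the percentage of a gene's allelic reads that lie on the second allele of the files, and which strain that is was not stated. The channel genes together were close to balance, with second-allele shares of 49.6% and 48.4% in H3K27me3 and 49.8%, 50.5% and 50.9% in IgG. At least 20 points from 50% were 3 of 42 genes in H3K27me3 E11.5 (9.72% of autosomal genes) and 1 of 42 in H3K27me3 E12.5 (8.22%). The one in both was Kcng4. In IgG the counts were 1 of 35 (8.48%), 2 of 38 (7.58%) and 2 of 41 (6.05%), all in genes with few reads, and Kcng4 was not among them.

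Kcng4 had shares of 26.3% (21.7 to 31.3, exact 95% interval) and 29.7% (25.7 to 34.0) in H3K27me3, and of 38.1%, 50% and 52.0% in IgG, where it had 21, 54 and 98 reads. The mark was thus lopsided towards the first allele in both libraries, and the deeper controls were balanced. Relative to IgG E12.5, the first allele was 3.86 (2.61 to 5.94) times and the second 1.63 (1.08 to 2.56) times as high at E12.5, so the second allele also stood above its control. At E11.5 the folds were 11.2 (6.41 to 21.3) and 6.48 (3.15 to 15.5). Fisher's exact test (two-sided, adjusted by Benjamini-Hochberg over all autosomal genes, comparing libraries and not conditions) gave adjusted p = 0.103 against IgG E12.5 and 0.892 against IgG E11.5. Against the deeper IgG E13.5 it gave adjusted p = 0.00122 at E12.5 and 0.000313 at E11.5.

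Against the stage-matched control, 3 of 38 channel genes had a share that differed at adjusted p under 0.05 at E12.5 (2.35% of autosomal genes). At an unadjusted p under 0.05 there were 9, against 10.9% of autosomal genes. In H3K27me3 E12.5 the channel genes had a median of 578 reads, against 67 over all autosomal genes. The part of depth in these counts of calls was not tested. All 3 genes past the adjusted threshold had a lower second-allele share in H3K27me3, as had 191 of the 343 autosomal genes called. Kcnh8 had 45.5% and 41.6% in H3K27me3 and 50.97%, 53.8% and 51.3% in IgG, a difference of -12.2 points at E12.5 (Fisher's exact test, adjusted p = 0.0012). Kcns3 had 36.5% and 37.1% in H3K27me3 and 45.2%, 56.8% and 51.04% in IgG, a difference of -19.6 points (adjusted p = 0.0348 by the same exact test). Kcnd3 had 45.9% and 42.7% in H3K27me3 and 55.6%, 51.6% and 50.2% in IgG, a difference of -8.91 points (adjusted p = 0.0464). In all 3 the H3K27me3 shares of both stages lay below the shares of all controls. That E12.5 differs from IgG E12.5 follows from how these genes were picked.

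Scaled by total reads, Kcns3 as a whole lay below IgG and Kcnd3 above it. Under TMM factors Kcns3 no longer lay below all controls, so how direction relates to level stays unsettled. Against IgG E13.5 the same 3 and Kcng4, Kcnh5 and Kcnh7 passed at E12.5, 6 of 41 against 6.12% of autosomal genes. Kcng4 and Cacna1i passed at E11.5, 2 of 41 against 4.12%. Here too the part of read depth was not tested. At E11.5, 2 of 35 passed against the male control (2.17% of autosomal genes). The first was Kcnh7, with 44.3% and 43.2% in H3K27me3 and 54.4%, 48.7% and 49.0% in IgG and a difference of -10.1 points (adjusted p = 0.0178, exact test), which was not past the threshold against IgG E13.5 (adjusted p = 0.185).

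The other was Cacna1i, the only channel gene whose share passed the threshold between the stages. It had 62.2% (59.1 to 65.3) on the second allele in H3K27me3 E11.5, 50.4% (48.0 to 52.7) at E12.5, and 47.7%, 48.1% and 51.6% in IgG, so 1 library stood apart from the other 4. The difference from the E11.5 control was 14.5 points (Fisher's exact test, adjusted p = 0.00853) and that of E12.5 from E11.5 was -11.8 points (adjusted p = 1.67e-06), where 1 of 42 channel genes passed against 0.53% of autosomal genes. Per allele, the E11.5 fold over IgG E11.5 was 1.82 (1.47 to 2.27) for the first and 3.29 (2.67 to 4.08) for the second allele, and the E12.5 fold over IgG E12.5 was 1.76 (1.48 to 2.11) and 1.93 (1.61 to 2.32). No second library of E11.5 was at hand to repeat the measurement.

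The interval of the share excluded 50% in 16 of 42 channel genes in each H3K27me3 library, 6 above and 10 below, against 19% of autosomal genes at E11.5 and 24.3% at E12.5. In IgG it did so in 3 of 35 genes at E11.5 (10.1%), 2 of 38 at E12.5 (8.96%) and 8 of 41 at E13.5 (13.6%). The channel genes hold several times the reads of a typical gene, and the part of depth in these counts was not tested. Kcnc1, Kcnd3, Kcng4, Kcnh5, Kcnh7, Kcnh8, Kcns3 and Cacna1a were below 50% at both stages, and Kcnh1 and Kcnh3 above at both. Kcnh1 was also above 50% in all 3 IgG libraries (59.9%, 57.1% and 59.0%), so its share of 56.1% and 56.4% in H3K27me3 was no higher than in the controls. Kcnh3 had 58.4% and 64.9% in H3K27me3 and 55.9%, 48.6% and 53.9% in IgG, with adjusted p = 0.196 against IgG E12.5 by the exact test. The 20-point departures at E11.5 in Kcna3 (90.9% of 11 reads) and Kcna7 (18% of 50 reads) were not seen at E12.5, where the shares were 64.7% and 48.5%.

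**Figure D5:**
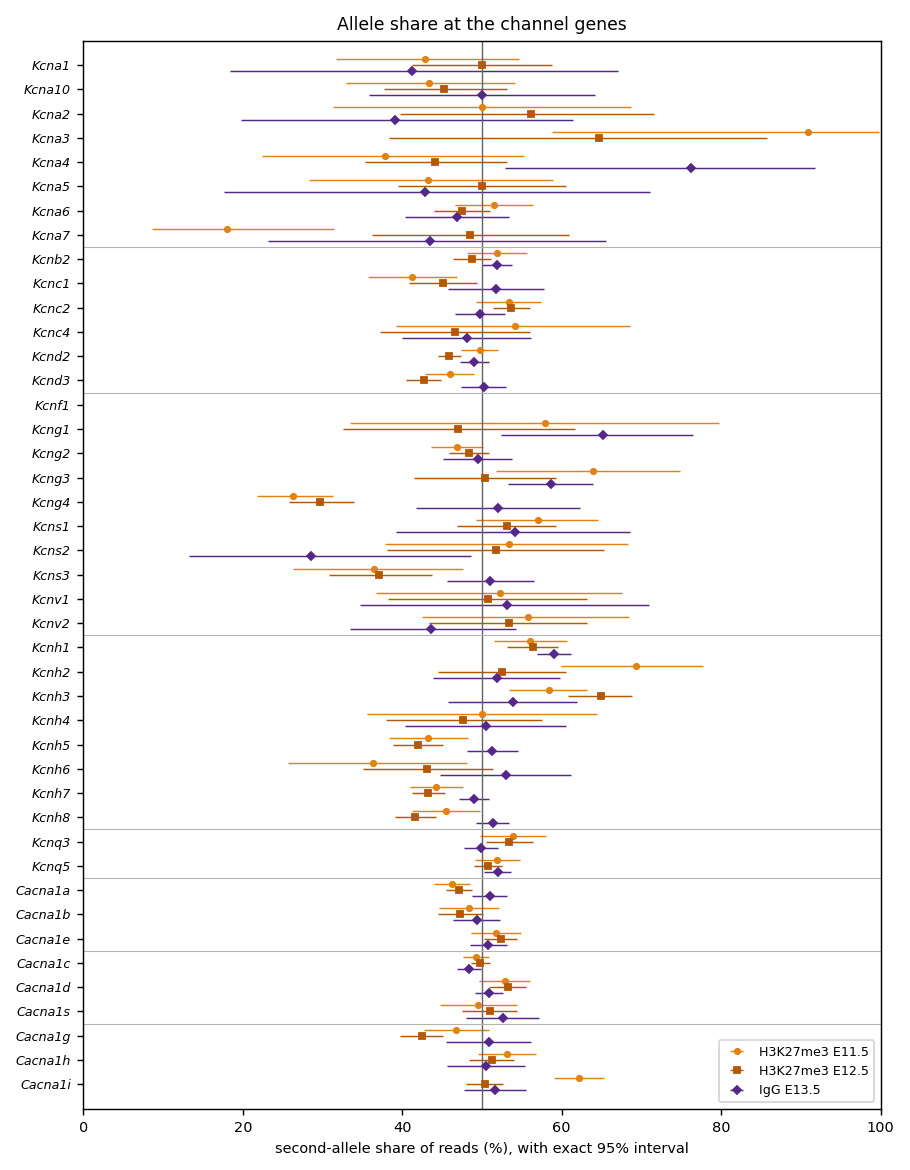
Second-allele share of the allelic reads (x axis, percent) of each channel gene with at least 10 reads, in H3K27me3 at E11.5 and E12.5 and in IgG E13.5; bars are exact 95% intervals and the line marks 50%. Both H3K27me3 points of Kcng4 lie at 26.3% and 29.7%, away from its IgG point at 52.0%, and in Cacna1i only the E11.5 point, at 62.2%, lies away from the line.

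Other genes of the same machinery gave a mixed picture. Over all autosomal genes, 15.2% were 2-fold above IgG and 29.5% below at E12.5, and 17.2% and 29.7% at E11.5. Of 29 genes for auxiliary subunits, which traffic and tune these pores, 5 were 2-fold above IgG and 3 below at E12.5, with a median of 0.05, and 7 and 1 at E11.5, with a median of 0.22. The highest were Kcne4 (1.75) and Kcne3 (1.22), small single-span partners of potassium channels, and the lowest was Cacnb1 (-1.15), the calcium channel beta subunit of skeletal muscle. Of 35 tested genes of other potassium channels, which are inward rectifiers, tandem-pore and calcium-activated or sodium-activated channels, 11 were higher and 3 lower at E12.5, with a median of 0.10. Kcnj10 (2.61) and Kcnj2 (2.54), inward rectifiers of glia and of muscle, were the highest and Kcnk7 (-1.54) the lowest. Voltage-gated sodium channel genes had 5 of 14 higher and none lower, with a median of 0.82, led by the beta subunits Scn2b (2.30) and Scn4b (2.07), and Scn3a (-0.16) was the lowest. All 3 medians lay above the autosomal median of -0.54, and the median of the pore genes, 0.59, fell between those of the sodium channel genes and the other 2 lists. Of the developmental regulators, whose median was 2.30, Olig2 (3.66) and Hoxc13 (3.11) were the highest and Evx1 (0.31) the lowest. Kcna4 and Kcna1, with 3.503 and 2.30, were the only channel genes that reached that median.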

How the data were processed

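CUT&RUN reads were analysed from 5 libraries, 1 for each group, and no spread between replicates is known. Each deposited file lists, for every gene, whole-number counts of reads on a first and a second allele, made by the authors and not normalised, and the deposited fraction of reads on the second allele, which equals the second count over the sum. The deposited gene length was used in kilobases. The submitters' processing notes name build mm10, Bowtie2 2.4.2, featureCounts, SAMtools 1.11, Trim Galore 0.6.6 and GATK among the tools, with no order. Allele assignment, the strain of the first allele and the handling of duplicates: not given in the sources used here.

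Levels (RPM) are both alleles per 1000000 reads of chromosomes 1 to 19. Ratios are log2 of RPM plus 1, which understates those of sparse genes, and need at least 20 reads in both libraries together. A change of 2-fold or more is called. Folds carry exact conditional binomial 95% intervals without pseudocount. Shares need at least 10 reads and carry Clopper-Pearson intervals. Fisher's exact test (two-sided, Benjamini-Hochberg over all autosomal genes tested, threshold 0.05) compares libraries. Intervals and tests cover counting error only, since each group had 1 library with gene counts. They treat reads as independent. Any PCR copies that remain would make the intervals too narrow and the p-values too small. Promoter windows come from RefSeq (GRCm38.p6). The ratio and Fisher calculations were tested on simulated data. Python 3.11.15, numpy 2.4.6, pandas 2.3.3, scipy 1.17.1, R 4.3.3 and edgeR 4.0.16 (TMM factors) were used.

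The members, gene lists and tests were chosen with earlier results of these data known. Named genes are the 8 highest and 6 lowest at E12.5, the highest and lowest of each subfamily, those with a share past a threshold, those within 200 kb of another, and the 2 highest and the lowest of each other list. Values of other members follow from the request to account for all 43. The comparison of both H3K27me3 levels with all 3 IgG levels was added after seeing the data.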

Additional observations from a re-analysis of the deposited data

Results flagged for a closer look

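In 6 channel genes the ratio of H3K27me3 over the stage-matched IgG library had opposite signs at E11.5 and E12.5. The difference between the stages was not tested, since each stage has 1 library of each kind with gene counts. In each of the 6 the counting interval of the fold included 1 at one of the stages, which was E12.5 for Cacna1b and Kcnh8 and E11.5 for Kcnh2, Kcnh6, Kcnh7 and Kcnq5. With TMM or median-of-ratios factors the signs were no longer opposite in Cacna1b, Kcnh7 and Kcnq5, which were then above the control at both stages. The log2 ratio at E12.5 minus that at E11.5 was -1.29 in Kcnh2, -0.85 in Kcnh6 and -0.54 in Cacna1b, which were above the control at E11.5. It was 0.87 in Kcnh7, 0.61 in Kcnh8 and 0.57 in Kcnq5, which were below the control at E11.5. The H3K27me3 levels themselves had log2 stage ratios of -0.57, -0.12 and -0.27 in the first 3 genes and of 0.23, 0.29 and 0.28 in the last 3. The IgG libraries had log2 ratios of E12.5 over E11.5 of 0.72, 0.74 and 0.26 in Kcnh2, Kcnh6 and Cacna1b, and of -0.64, -0.32 and -0.29 in Kcnh7, Kcnh8 and Kcnq5. What the control libraries contributed was not tested, and sex, stage and library cannot be told apart between them.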

How the results depend on the processing

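No paired analysis was possible because each group had 1 library with a file, and for the same reason no replicate could be left out. The median log2 ratio of the channel genes minus that of autosomal genes ranged from 0.96 to 1.25 at E12.5 and from 1.18 to 1.43 at E11.5 over all settings tried. The count of genes called higher at E12.5 was 12 (15.2% of autosomal genes). It became 26 with TMM (24.9%), 26 with median-of-ratios scaling (24.8%), 21 at 1.5-fold (22.9%) and 9 with at least 10 IgG reads (11.9%). The count called lower at E12.5 was 2, and became 0 with either scaling, 7 at 1.5-fold, and 1 over IgG E13.5, over the mean of all IgG libraries or over IgG E11.5. Of autosomal genes 29.5% were lower, 48.5% at 1.5-fold, and 24.2%, 28.1% and 27.6% over those controls in turn. With TMM and median-of-ratios scaling the shares were 5.55% and 5.63%. At E11.5, 17 were higher (17.2% of autosomal genes) and 0 lower (29.7%). This became 11 higher with at least 10 IgG reads (13.3%), 5 lower at 1.5-fold (46.7%) and 2 lower over IgG E12.5 (31.8%). Between stages 0 were called, and 4 of 42 at 1.5-fold (Kcna4 higher, Kcns2, Kcna7 and Kcnh3 lower). At 1.5-fold 4.73% of autosomal genes were higher and 5.32% lower. Genes with both H3K27me3 levels below all IgG levels numbered 8 (49.7% of autosomal genes), and 2 with TMM (35.1%) or median-of-ratios scaling (33.8%). With length bounds of 20 and 200 kb, short genes called were 7 in place of 4 and long ones 1 in place of 2. The shares of all autosomal genes of these classes were 22.4% in place of 28% and 7.85% in place of 7.94%. Genes 20 points from balance in IgG became 0 at 20 or at 50 reads in place of 1 at E11.5 and of 2 at E12.5, 0 at 50 reads in place of 2 at E13.5, and 4 at 15 points in place of 1 at E11.5. Share calls at E12.5 were 3 (2.35% of autosomal genes), and 6 against IgG E13.5 (6.12%). Adjusted p over the read minima and controls tried ran from 6.18e-07 to 0.0012 for Kcnh8, 0.0222 to 0.0348 for Kcns3, 0.00108 to 0.0464 for Kcnd3 and 0.00156 to 0.00853 for Cacna1i against IgG, and from 0.0136 to 0.185 for Kcnh7. No called ratio changed sign. Depth limits the genes with few control reads, such as Kcna4 with 2 in IgG E12.5, whose folds have wide intervals.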
